A study of Aspergillus nidulans with 7 samples.

Results

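Backbone genes encode the large enzymes that build the core of a fungal secondary metabolite, and 37 of them in Aspergillus nidulans were followed through asexual sporulation, 20 listed as polyketide synthases and 17 as nonribosomal peptide synthetases or relatives of these. The genes were taken from a list of AN identifiers, and 36 of the 37 were found among the 10639 genes of the deposited count table. The identifier AN9217 was not analysed here. The samples were 7 libraries from FGSC A4, a wild-type laboratory strain. The first library, 0 h, came from mycelium grown submerged in aerated minimal medium, and the libraries of 6, 12, 18, 24, 30 and 48 h came from mycelium of that culture collected on filter paper, kept wet from below and exposed to air under constant light. Filters were taken in pairs at each time, and the labels do not say whether a library pooled them. There was 1 library per time, so times could not be tested against each other. The p-values of the fits below test a slope or curve over hours against no change. The spread they use comes from departures of the libraries from the fitted line or curve.

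A polyketide synthase joins small acyl units into a chain, much as a fatty acid synthase does, and leaves some of the carbonyl groups in place. A nonribosomal peptide synthetase joins amino acids without a ribosome, one module for each residue, and some fungal enzymes fuse the 2 kinds. Both kinds carry the growing product on a carrier protein that is active after a phosphopantetheinyl transferase has modified it. The backbone gene usually lies in a cluster with the genes for tailoring enzymes, transporters and a regulator, and A. nidulans is known for clusters that stay nearly unexpressed under ordinary laboratory growth.

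The libraries held 4186063 counts at 12 h to 9899347 counts at 30 h. Of these counts, before any scaling between libraries, the backbone genes took between 0.139% and 0.315% at 6 to 48 h, against 0.0995% at 0 h. The labelled stages could be checked on 5 genes of conidiophore development and the spore wall, brlA, abaA, wetA, rodA and dewA, of which 5 rose over 0 to 48 h. Without 48 h abaA and wetA did not pass (edgeR adjusted p = 0.376 and 0.133), and rodA did not without 0, 12, 24 or 30 h (edgeR adjusted p up to 0.0803). Levels are given as CPM, counts scaled to a common library size after trimmed-mean (TMM) normalization. The scaling factor was 0.878 to 1.395 in the libraries of 6 to 48 h against 0.459 at 0 h, so the 0 h library carries the largest correction. A count of 1 was worth 0.0771 CPM at 30 h against 0.313 CPM at 0 h. CPM does not allow for gene length, so genes are ranked against each other as CPM per kilobase of counted length.

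Backbone genes were long and were read at low levels for their length. Their median counted length was 6873.5 bases against 1242 bases for all genes. AN7884, entered here as atnA of aspercryptin synthesis, was the longest gene of the table at 21646 bases, and 5 of the 20 longest genes were backbone genes. The median of each gene's highest level was 3.80 CPM per kilobase for the backbone genes against 32.8 for all genes with a count, and 7 backbone genes lay above that figure. The polyketide synthase AN3230 reached 105 CPM per kilobase at 30 h. It was followed by the peptide synthetases AN2064 at 80.3 (0 h) and AN2924 at 78.4 (48 h), the polyketide synthase AN2547 at 77.5 (24 h) and the peptide synthetase AN1242 at 74.4 (12 h). AN5318 at 53.4 and AN7903 at 37.7 were the other members above the figure for all genes. As a share of reads, which also grows with length, AN1242 (18234 bases) alone made up 28.6% (48 h) to 56.2% (6 h) of the summed CPM of the backbone genes.

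**Figure D1:**
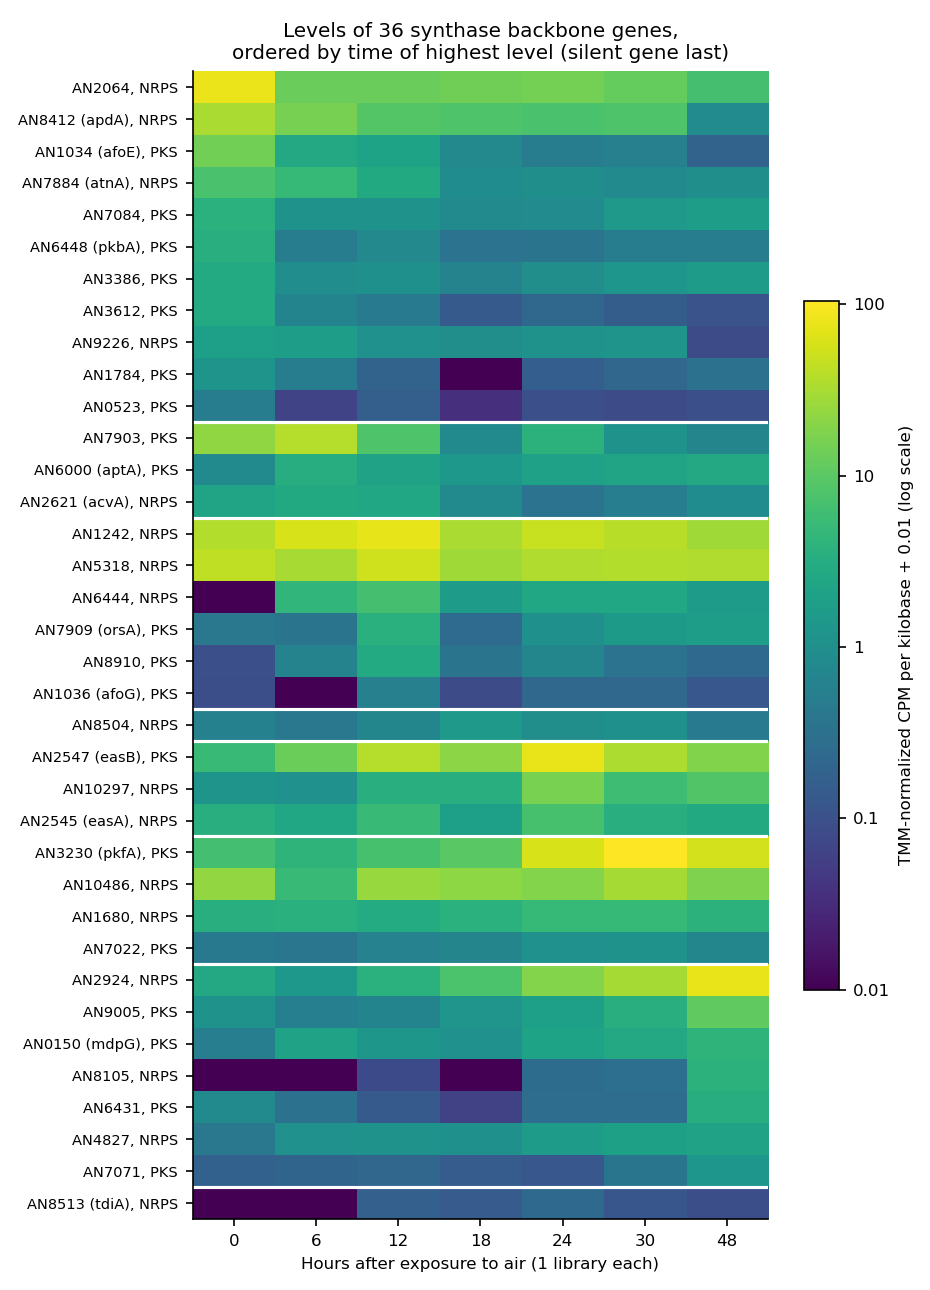
Level of each of the 36 backbone genes (rows) in the 7 libraries (columns, hours after transfer to air), as TMM-scaled CPM per kilobase plus a small constant on a log colour scale, with genes ordered by the time of their highest level. Genes highest at 0 h form the top block of 11, those highest at 48 h the lower block of 7, and AN8513 is near the floor in every column.

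Silence throughout the course was rare among these genes by CPM, which does not allow for length. With silent meaning under 1 CPM in all 7 libraries, 1 of 36 backbone genes was silent, which is 2.78% against 9.39% of all genes. A long gene reaches 1 CPM at a lower level per base, so these shares carry no comparison. Under 1 CPM per kilobase in all 7 libraries there were 3 of the 36. The silent gene was AN8513, entered here as tdiA, the enzyme that couples the precursors of terrequinone, with 0, 0, 2, 2, 4, 4 and 3 counts in the 7 libraries in time order. The 4 other terrequinone genes listed, AN8514 to AN8517, were silent by the same measure. Since long genes collect more counts, a stricter measure per kilobase was also used. By that measure 2 more polyketide synthases, AN0523 and AN1036, stayed under 1 CPM per kilobase in all 7 libraries. That is 5.71% of the 35 not silent against 0.975% of all genes not silent. A gene of 1 kilobase or less that reaches 1 CPM cannot stay under this limit. The median counted length was 6873.5 bases for backbone genes and 1242 bases for all genes, so these 2 shares are not alike and carry no comparison. Their highest levels were 3.76 CPM at 0 h for AN0523 and 4.13 CPM at 12 h for AN1036, entered as afoG, which makes the first chain of asperfuranone. AN0523 lies inside the span of another gene model, AN0621, which was counted at 14.7 to 24.8 CPM. That model spans 767086 bases, of which 2496 were counted.

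Counted per library, 28, 31, 33, 27, 32, 32 and 30 of the 36 backbone genes were at or above 1 CPM, in time order. At or above 1 CPM per kilobase there were 22, 21, 24, 17, 20, 23 and 22. By CPM most of these genes were read above this level at every time, and 18 h had the fewest by either measure. The summed level of the 36 genes was lowest at 18 h as well, at 1303 CPM, and highest at 24 h, at 2589.5 CPM. At 0 h it was 2167 CPM, above 6 h (1917 CPM), 18 h and 48 h (1818 CPM). As a share of unscaled counts 0 h was lowest, at 0.0995%, so the place of 0 h depends on the scaling. With no allowance for length, 9 backbone genes stayed under 10 CPM throughout, AN0523, AN1036, AN1784, AN6000, AN7022, AN7071, AN4827, AN8504 and AN8513.

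The 35 genes not silent were grouped by the library in which they were highest. At 0 h there were 11, or 31.4% against 27.8% of all genes not silent. At 6 h there were 3, or 8.57% against 14.3%, and at 12 h there were 6, or 17.1% against 6.21%. These early times are those of aerial hyphae and of the swelling vesicle and its first cells. One gene, or 2.86% against 8.17%, was highest at 18 h. At 24 h there were 3, or 8.57% against 7.54%, and at 30 h there were 4, or 11.4% against 8.32%. The last library, with chains of mature spores, had 7, or 20.0% against 27.6%.

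The ends of the course held 18 of the 35, and they held many of all genes too. The share of backbone genes was 31.4% against 27.8% of all genes at 0 h, and 20.0% against 27.6% at 48 h. The 12 h library was the time at which the share of backbone genes stood farthest above that of all genes. The 12 h library was also the shallowest, at 4186063 counts. The highest level exceeded the next highest beyond counting error, by an exact 95% interval of the ratio of counts, in 28 of the 35 genes. The 7 whose time of highest level is not set apart by counting error were AN9226 (0 h), AN6000 and AN2621 (6 h), AN8504 (18 h), AN7022 and AN1680 (30 h) and AN4827 (48 h). With libraries scaled by their totals alone, 6 genes moved to another time, 7 were highest at 0 h and 10 at 48 h. The shares of all genes by time under that scaling are not given here, so these counts have no background.

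**Figure D2:**
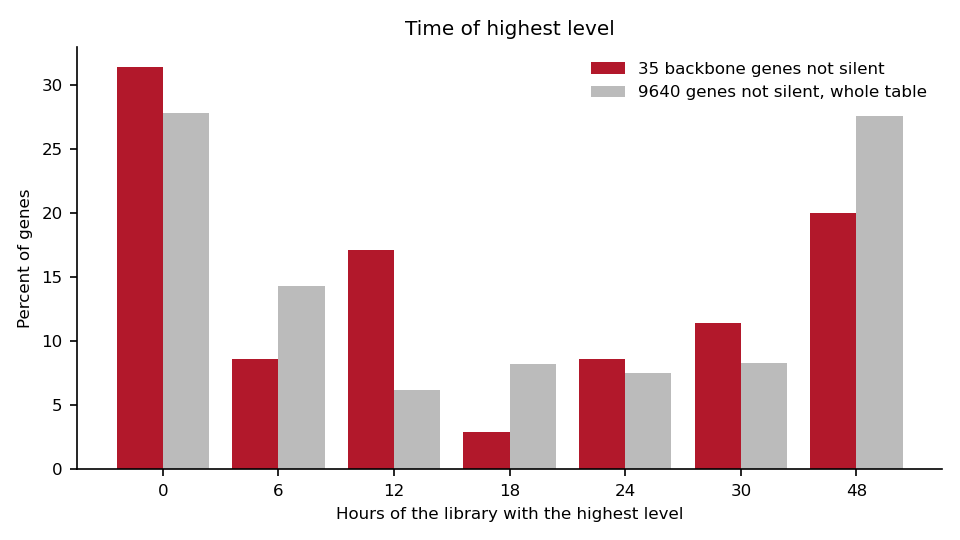
Share in percent (vertical axis) of the 35 backbone genes that were not silent, beside all genes that were not silent, that were highest in each library (horizontal axis, hours). The backbone genes stand above all genes at 12 h, at 17.1% against 6.21%, and below them at 48 h, at 20.0% against 27.6%.

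Trends over the whole course were tested as a slope on hours for all genes with edgeR, and 35 backbone genes entered the fit. Of these, 6 rose, or 17.1% against 10.6% of all genes tested. Another 6 fell, or 17.1% against 12.4% of all genes tested, and 23 did not pass. The rising genes were the polyketide synthases AN0150, AN3230, AN7071 and AN9005 and the peptide synthetases AN2924 and AN8105. The falling genes were the polyketide synthases AN1034, AN3612 and AN7903 and the peptide synthetases AN2064, AN7884 and AN8412. The median fitted log2 change over 48 h was -0.04 for the backbone genes against 0.11 for all genes and single backbone genes ranged from -6.37 to 9.10. With library totals alone the medians were 1.11 for the backbone genes against 1.35 for all genes, and 9 backbone genes rose and 4 fell. That scaling added AN6431, AN10297 and AN4827 to the rising genes (edgeR adjusted p = 0.0207, 0.0421 and 0.049) and took AN2064 and AN7884 from the falling ones. All genes past this slope in either direction numbered 2364 with library totals alone and 2232 with TMM. Without the 48 h library 3 backbone genes rose, and without the 0 h library 3 backbone genes fell.

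Over the air-exposed libraries of 6 to 48 h, 5 backbone genes rose, or 14.3% against 10.1% of all genes, and 3 fell, or 8.57% against 8.68%. By library totals alone these counts were 8 and 2, with AN0150, AN3230 and AN3386 added (edgeR adjusted p = 0.0193, 0.0476 and 0.0497) and AN8412 lost. All genes past this slope in either direction numbered 2536 by library totals alone and 1818 with TMM. Of the 6 backbone genes that rose over the whole course, 4 rose here too, and AN6431 was the fifth. Of the 6 backbone genes that fell over the whole course, 3 fell here too, AN1034, AN7903 and AN8412. A curve of hours and hours squared was also fitted, with both terms tested together. It can call genes highest or lowest in mid-course, and it also calls genes with a plain rise or fall. It called 16 backbone genes, or 45.7% against 32.0% of all genes tested. Of these, 5 had risen and 6 had fallen on the slope over 0 to 48 h, and 5 had not passed that slope. The last 5 were AN2547 and AN10297, highest at 24 h, AN6448 and AN9226, highest at 0 h, and AN6431, highest at 48 h. By library totals alone the curve called 19, with AN0150, AN7022, AN1680, AN4827 and AN8504 added (edgeR adjusted p = 0.0186, 0.0164, 0.0205, 0.0126 and 0.0252) and AN2064 and AN6448 lost. The share of all genes called by the curve under that scaling is not given here. With TMM scaling 17 backbone genes were called by at least one of the 3 fits and 18 of those tested by none.

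**Figure D3:**
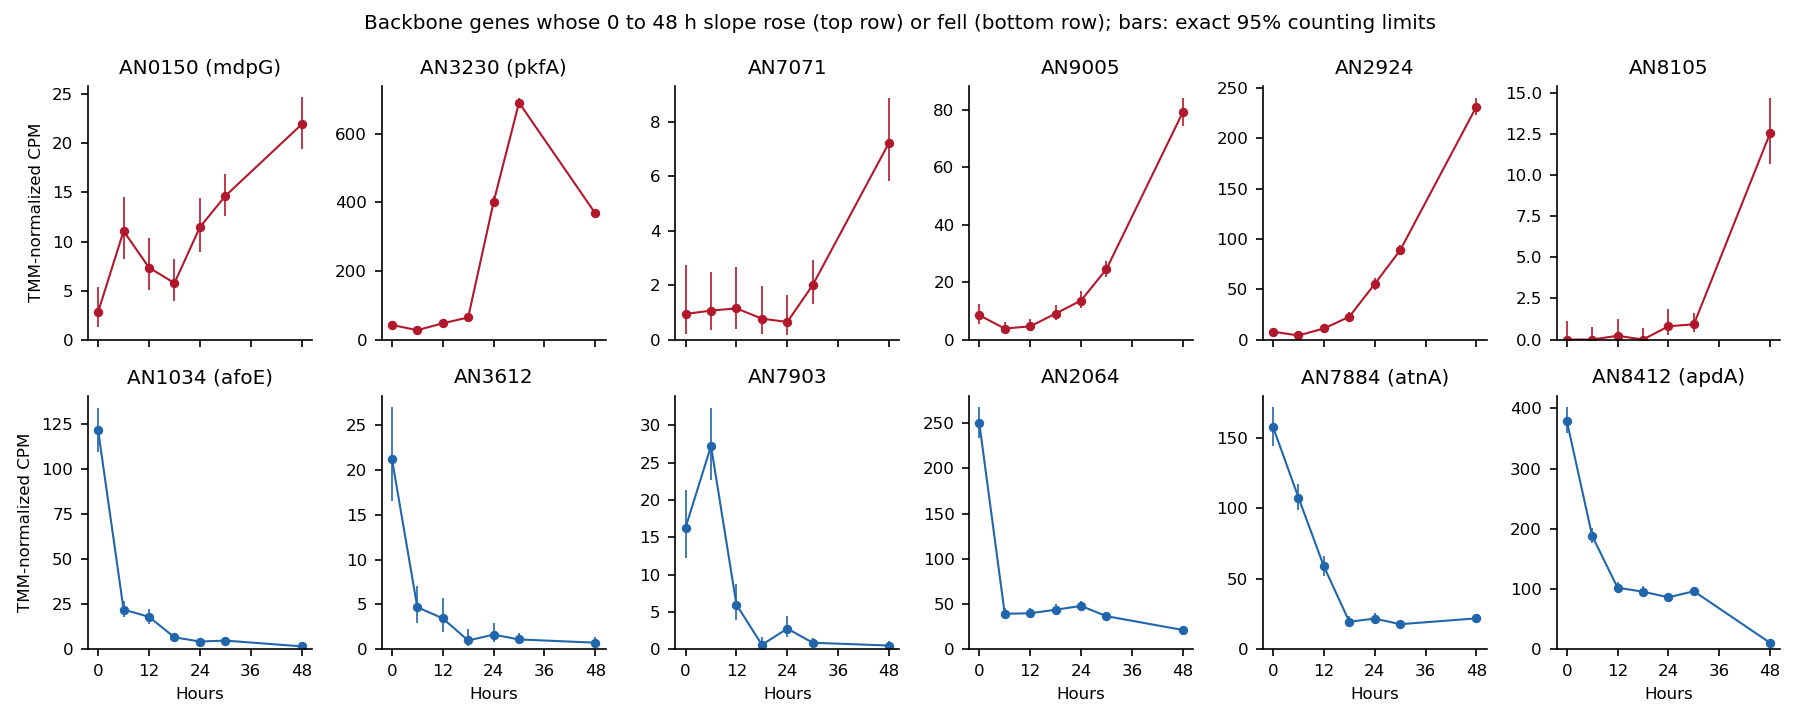
Level in CPM (vertical axis from 0, scaled for each panel) against hours after transfer to air for the 6 rising (top) and 6 falling backbone genes (bottom), 1 library per point and bars for exact 95% counting limits. Falling genes lost most of their highest level by 18 h, and rising genes gained most of theirs at 24 h or later, AN8105 and AN7071 mainly at 48 h.

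AN1034, entered here as afoE, the polyketide synthase that extends the asperfuranone chain, had the largest ratio between 0 h and 48 h of the falling genes. Its levels in time order were 121, 21.9, 17.9, 6.53, 4.20, 4.70 and 1.51 CPM. The 0 h library was above all the others and 48 h was lowest, 80.3-fold below 0 h (95% counting interval 50.7 to 135). Its fitted log2 change over 48 h was -6.12 ± 0.84 (SE, edgeR adjusted p = 0.002), and it was -3.90 ± 0.57 over 6 to 48 h (SE, edgeR adjusted p = 0.0026). The call held without any 1 of the 7 libraries. The partner synthase AN1036, 3888 bases away on contig 15, was highest at 12 h and had 0.63 CPM at 0 h.

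AN8412, entered as apdA, is the fused polyketide and peptide synthase of aspyridone. Its levels were 379.7, 188, 102, 95.4, 86.1, 96.1 and 10.3 CPM in time order. Its level was above all later libraries at 0 h, lay between 86.1 and 102 CPM from 12 to 30 h, and was 9.37-fold lower at 48 h than at 30 h (95% counting interval 7.81 to 11.3). The fitted log2 change was -4.23 ± 0.73 over 48 h (SE, edgeR adjusted p = 0.00484) and -3.40 ± 0.80 over 6 to 48 h (SE, edgeR adjusted p = 0.0212). The whole-course call held without any 1 library, while the 6 to 48 h call was lost without 6 h (edgeR adjusted p = 0.0583) or 48 h (edgeR adjusted p = 0.165), with library totals alone (edgeR adjusted p = 0.0609) and on a log scale of hours (edgeR adjusted p = 0.073). As a ratio that last step was its largest between neighbouring libraries.

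AN7884, the aspercryptin peptide synthetase, had 158, 107, 58.7, 19.4, 21.6, 17.7 and 21.8 CPM over the course. Its levels stepped down through 18 h and were between 17.7 and 21.8 CPM from then on. It was 7.23-fold lower at 48 h than at 0 h (95% counting interval 6.23 to 8.41), with a fitted log2 change of -3.01 ± 0.73 (SE, edgeR adjusted p = 0.0198). The call was lost without 0 h (edgeR adjusted p = 0.0714) and with library totals alone (edgeR adjusted p = 0.0718). With totals alone its highest library was 6 h.

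AN2064, listed as a peptide synthetase, had 250.3, 39.2, 39.7, 43.6, 47.8, 36.5 and 21.1 CPM. The 0 h library stood 6.39-fold above 6 h (95% counting interval 5.44 to 7.55), and the 5 libraries of 6 to 30 h then lay close together between 36.5 and 47.8 CPM. The slope over 48 h gave a fitted log2 change of -2.89 ± 0.77 (SE, edgeR adjusted p = 0.0276). The call rested on single libraries, with edgeR adjusted p = 0.18 without 0 h, 0.0505 without 24 h, 0.064 without 30 h and 0.0664 without 48 h. It was lost with library totals alone too (edgeR adjusted p = 0.136), and limma-voom gave an adjusted p of 0.0642.

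The polyketide synthase AN3612 was likewise highest at 0 h and lowest at 48 h, with 21.3, 4.68, 3.44, 0.96, 1.61, 1.08 and 0.72 CPM. The 0 h library was 4.55-fold above 6 h (95% counting interval 2.78 to 7.73), and from 18 h the gene was at 0.72 to 1.61 CPM. The fitted log2 change was -4.76 ± 0.97 (SE, edgeR adjusted p = 0.00941) over 48 h, a call lost without 0 h (edgeR adjusted p = 0.0557).

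AN7903 was the falling gene that peaked after 0 h. It belongs to the dba cluster, named for derivatives of benzaldehyde, and the table holds a model of 872 bases for it with 723 counted, far shorter than a polyketide synthase. It had 16.3, 27.2, 5.96, 0.58, 2.74, 0.85 and 0.48 CPM, highest at 6 h and under 3 CPM from 18 h on. The 12 h library was 4.57-fold below 6 h (95% counting interval 2.98 to 7.26). Its fitted log2 change was -6.37 ± 1.27 over 48 h (SE, edgeR adjusted p = 0.009) and -6.01 ± 1.26 over 6 to 48 h (SE, edgeR adjusted p = 0.0138). The whole-course call held without any 1 library, and the 6 to 48 h call was lost without 6 h (edgeR adjusted p = 0.0619).

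Of the rising genes, AN2924, listed as a peptide synthetase, had the smallest adjusted p over 0 to 48 h. It had 7.83, 4.04, 11.0, 22.7, 55.4, 88.9 and 232 CPM, lowest at 6 h and higher at each later time. At 48 h it was 29.6-fold above 0 h (95% counting interval 20.0 to 45.8). The slope gave a fitted log2 change of 5.83 ± 0.63 over 48 h (SE, edgeR adjusted p = 0.000813) and 5.68 ± 0.59 over 6 to 48 h (SE, edgeR adjusted p = 0.000834). Both calls held without any 1 library.

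AN3230, entered as pkfA, is the polyketide synthase of aspernidine. It had 42.6, 27.2, 47.4, 64.3, 401, 691 and 368 CPM, in a low group of 4 libraries through 18 h and a high group of 3 from 24 h that did not overlap it. The 24 h library was 6.24-fold above 18 h (95% counting interval 5.56 to 7.01), at the stage of early conidiophores, and 30 h was 16.2-fold above 0 h (95% counting interval 13.7 to 19.3). The fitted log2 change was 5.31 ± 1.42 (SE, edgeR adjusted p = 0.0281) over 48 h. The call was lost without 0 h (edgeR adjusted p = 0.0724), without 6 h (edgeR adjusted p = 0.0615) and without 12 h (edgeR adjusted p = 0.0573).

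AN8105, listed as a peptide synthetase, was all but unread until the last library. Its counts were 0, 0, 1, 0, 5, 12 and 158 in time order, and its 48 h level was 12.6 CPM. That is at least 13.4-fold higher than the limit of 3 counts at 0 h, and 13.6-fold above 30 h (95% counting interval 7.56 to 26.8). edgeR called it over 0 to 48 h (adjusted p = 0.00115) and over 6 to 48 h (adjusted p = 0.00131), and the first call was lost without 48 h (edgeR adjusted p = 0.0688), as was the second (edgeR adjusted p = 0.14).

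The polyketide synthase AN9005 had 8.46, 3.83, 4.58, 9.02, 13.6, 24.5 and 79.0 CPM, lowest at 6 h and highest at 48 h. The 48 h level was 9.34-fold above 0 h (95% counting interval 6.38 to 14.2). Its fitted log2 change was 3.98 ± 0.59 over 48 h (SE, edgeR adjusted p = 0.0027) and 4.59 ± 0.32 over 6 to 48 h (SE, edgeR adjusted p = 0.000215). The first call was lost without 48 h (edgeR adjusted p = 0.0654) and the second held without any 1 library.

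AN0150 and AN7071 were the weaker of the rising polyketide synthases. AN0150, entered as mdpG, makes the anthraquinone on the way to monodictyphenone, and had 2.82, 11.1, 7.33, 5.76, 11.5, 14.6 and 21.9 CPM. Its 48 h level was 7.78-fold above 0 h (95% counting interval 4.04 to 17.2), with a fitted log2 change of 2.07 ± 0.63 (SE, edgeR adjusted p = 0.0429). The call held without 6 h and was lost without any 1 of the other libraries, with edgeR adjusted p = 0.0725, 0.0774, 0.0522, 0.0715, 0.088 and 0.187 without 0, 12, 18, 24, 30 and 48 h. AN7071 had 0.94, 1.06, 1.15, 0.77, 0.65, 2.004 and 7.24 CPM, near 1 CPM until the last pair of libraries. The slope gave a fitted log2 change of 3.16 ± 0.81 (SE, edgeR adjusted p = 0.0231), lost without 30 h (edgeR adjusted p = 0.0514), without 48 h (edgeR adjusted p = 0.533) and on a log scale of hours (edgeR adjusted p = 0.0589). Over 6 to 48 h its fitted log2 change was 3.24 ± 0.79 (SE, edgeR adjusted p = 0.0218), with adjusted p = 0.0556, 0.0503 and 0.547 without 12, 18 and 48 h and 0.0622 on a log scale of hours.

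AN6431, a polyketide synthase, rose over 6 to 48 h and did not pass over 0 to 48 h with TMM scaling. It had 5.95, 2.34, 0.92, 0.38, 1.94, 1.93 and 23.3 CPM, lowest at 18 h, and at 48 h it stood 12.1-fold above 30 h (95% counting interval 8.03 to 19.0). The fitted log2 change was 4.37 ± 0.99 over 6 to 48 h (SE, edgeR adjusted p = 0.018) and 2.65 ± 1.18 over 0 to 48 h (SE, edgeR adjusted p = 0.14). With library totals alone the 0 to 48 h slope passed (edgeR adjusted p = 0.0207). On a log scale of hours the 6 to 48 h call was lost (edgeR adjusted p = 0.0691). It was also lost without 12 h (edgeR adjusted p = 0.0636) and without 48 h (edgeR adjusted p = 0.906), and without 48 h the curve call was lost as well (edgeR adjusted p = 0.0799).

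**Figure D4:**
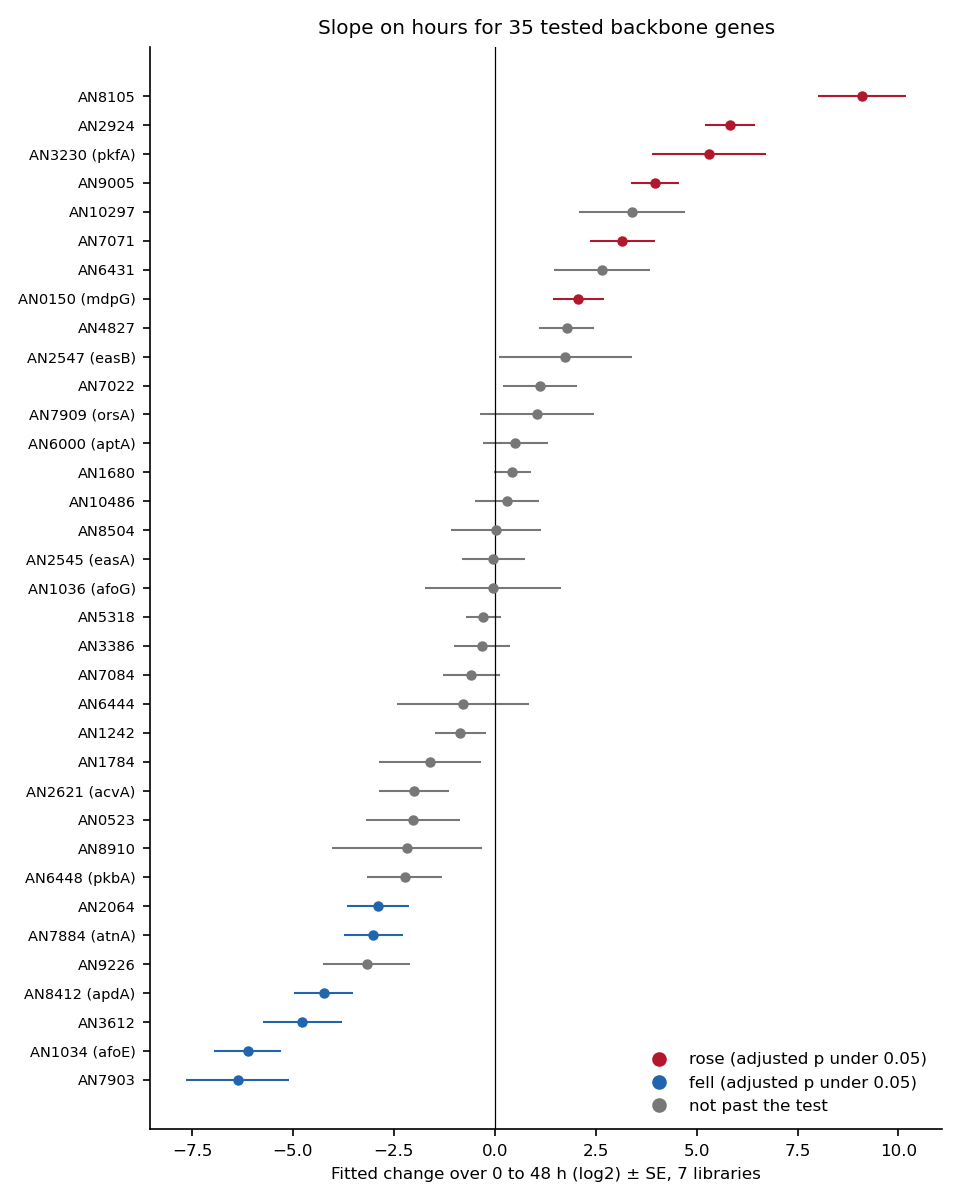
Fitted log2 change over 0 to 48 h (horizontal axis, bars are SE) for the 35 tested backbone genes (rows), with genes past an edgeR adjusted p of 0.05 coloured by direction. The 6 rising genes lie between 2.07 and 9.10 and the 6 falling genes between -6.37 and -2.89.

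AN2547, called by the curve, and its neighbour AN2545, called by none of the fits, make emericellamide, a cyclic peptide with a polyketide tail. AN2547, entered as easB, is the polyketide synthase and had 38.8, 100.2, 284, 160.1, 589, 254 and 139 CPM. It was highest at 24 h, 15.2-fold above 0 h (95% counting interval 12.7 to 18.3), with a lesser high at 12 h. edgeR called its curve (adjusted p = 0.0172) and not its slope over 48 h (adjusted p = 0.474), and the curve call was lost without 0 h (adjusted p = 0.106) or 24 h (adjusted p = 0.0608). The peptide synthetase AN2545, entered as easA and 3785 bases away on contig 41, had 72.4, 52.6, 107, 37.8, 146, 71.5 and 57.5 CPM. Its highs at 12 h and 24 h fell at the same times, and its 24 h level was 3.87-fold above 18 h (95% counting interval 3.31 to 4.54). Both genes lie inside the span of another model, AN10327, which had 67.4 CPM at 48 h against 303.6 CPM at 0 h. That model spans 203247 bases, of which 5349 were counted.

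AN10297, listed as a peptide synthetase, was also highest at 24 h, with 3.76, 3.41, 11.0, 10.6, 52.5, 18.8 and 26.8 CPM. Its 24 h level was 4.97-fold above 18 h (95% counting interval 3.72 to 6.74), and all 3 libraries from 24 h were above all 4 earlier ones. edgeR called its curve (adjusted p = 0.0273) and not its slope over 0 to 48 h (adjusted p = 0.0912). The slope passed with library totals alone (edgeR adjusted p = 0.0421), on a log scale of hours (edgeR adjusted p = 0.0263), with DESeq2 (adjusted p = 0.00652) and without 24 h or 48 h (edgeR adjusted p = 0.0193 and 0.0376). The curve call was lost without 0, 6, 12 or 48 h (edgeR adjusted p = 0.0789, 0.0778, 0.0501 and 0.0706), and limma-voom gave it an adjusted p of 0.0758.

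AN6448 and AN9226 were called by the curve as well. AN6448, entered as pkbA, starts the synthesis of cichorine, a plant toxin. It had 25.1, 3.62, 5.73, 2.50, 2.58, 3.55 and 3.82 CPM, so the 0 h library stood 6.93-fold above 6 h (95% counting interval 4.07 to 12.5) and the other 6 lay within a narrow range. edgeR gave its curve an adjusted p of 0.0167, lost without 0 h (0.727) or 18 h (0.0533) and with library totals alone (0.133). AN9226 had 14.1, 13.8, 8.25, 7.29, 8.56, 9.17 and 0.56 CPM, level within a factor of 2 until 30 h and 25.3-fold lower at 48 h than at 0 h (95% counting interval 11.3 to 66.6). edgeR gave its curve an adjusted p of 0.0154, lost without 48 h (adjusted p = 0.312). Its slope over 0 to 48 h had an edgeR adjusted p of 0.0628, and it passed as falling with DESeq2 (adjusted p = 0.00288), with limma-voom (adjusted p = 0.0305) and without 30 h (edgeR adjusted p = 0.0312).

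The peptide synthetase listed beside AN6448 in the cichorine cluster, AN6444, lies 8327 bases away on contig 105 and was higher, not lower, at 6 h than at 0 h. It had 0 counts at 0 h, which allows up to 0.94 CPM, and 13.6, 21.5, 5.18, 7.59, 7.63 and 5.25 CPM at 6 to 48 h. All 6 air-exposed libraries were above the 0 h limit, and its slope did not pass (edgeR adjusted p = 0.764).

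A narrow peak at 12 h, when the first cells form on the vesicle, was the pattern of 2 polyketide synthases that passed none of the edgeR fits with TMM. AN7909, entered as orsA, the orsellinic acid synthase, had 2.51, 2.13, 22.5, 1.54, 6.62, 9.63 and 10.7 CPM. Its 12 h level was 10.6-fold above 6 h (95% counting interval 5.50 to 22.7) and 14.6-fold above 18 h (95% counting interval 7.14 to 34.8). AN8910 had 0.63, 4.47, 20.9, 2.50, 5.17, 2.47 and 1.67 CPM, 4.67-fold above 6 h (95% counting interval 2.88 to 7.90) and 8.36-fold above 18 h (95% counting interval 4.65 to 16.3). With DESeq2 its slope over 6 to 48 h passed as falling (adjusted p = 0.0303). Each of these peaks rests on 1 library, the shallowest of the 7.

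Changes of at least 4-fold between neighbouring libraries, counted on CPM plus 0.5 where the higher of both was 10 CPM or more, were few and carry no test. Between 6 h and 0 h, 5 of the 35 tested backbone genes were that much lower at 6 h against 4.68% of all genes tested, and AN6444 was that much higher at 6 h, against 2.74%. The 5 were AN1034, AN3612, AN6448, AN2064 and AN10486. From 6 h to 12 h, AN7909, AN8910 and AN10486 were higher in the later library, against 1.04% of all genes, and AN7903 was lower, against 0.278%. From 12 h to 18 h, AN7909 and AN8910 were lower in the later library, and 4 genes of the whole table were (0.0412%). From 18 h to 24 h, AN3230 and AN10297 were higher, against 0.165%. From 24 h to 30 h no backbone gene passed this size, against 0.237% of all genes higher and 0.433% lower at 30 h. From 30 h to 48 h, AN6431 and AN8105 were higher, against 1.19%, and AN8412 was lower, against 1.56%.

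Of the 10 backbone genes highest per kilobase, AN1242, AN5318 and AN10486 passed no edgeR fit with TMM. AN1242, listed as a peptide synthetase, had 652, 1076, 1357, 586, 879, 702 and 519 CPM, highest at 6 h and 12 h, and its fitted log2 change was -0.86 ± 0.63 (SE, edgeR adjusted p = 0.355). With DESeq2 the slope of AN1242 over 6 to 48 h passed as falling (adjusted p = 0.0419). AN5318, also listed as a peptide synthetase, had 166, 120.0, 204, 105, 132, 137 and 133 CPM, with its highest library 1.93-fold above its lowest (95% counting interval 1.73 to 2.15), the least spread among the 10 genes highest per kilobase. AN10486 had 73.3, 16.4, 80.2, 69.1, 60.1, 93.9 and 55.7 CPM, level but for 6 h, where it was 4.47-fold below 0 h (95% counting interval 3.44 to 5.87). The slope over 48 h had an edgeR adjusted p of 0.668 for AN5318 and 0.817 for AN10486.

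AN2621, entered as acvA, makes the peptide from which penicillin is built, and had 24.8, 31.1, 28.6, 9.41, 3.71, 5.86 and 10.3 CPM. The first 3 libraries were above the later 4, and 24 h was lowest, yet its slope did not pass (log2 change -2.01 ± 0.86 over 48 h, SE, edgeR adjusted p = 0.125) unless 48 h was left out (edgeR adjusted p = 0.0308). Its curve passed with DESeq2 (adjusted p = 0.00747) and with RLE factors (edgeR adjusted p = 0.0445). Of the other uncalled genes, AN7084, AN3386 and AN1784 were highest at 0 h, at 26.6, 21.6 and 9.09 CPM. With DESeq2 the curves of AN7084 and AN1784 passed (adjusted p = 0.0245 and 0.0054), as did the 0 to 48 h slope of AN4827 (adjusted p = 0.0469). AN1680 stayed between 11.0 and 18.3 CPM, AN4827 between 1.25 and 6.60, AN8504 between 1.06 and 4.03, AN7022 between 0.85 and 2.54, and AN6000, the asperthecin synthase entered as aptA, between 0.94 and 3.62. The model of AN6000 had 1118 of its 5453 bases counted and overlaps AN10755 and AN5933, so its level rests on a fragment.

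Backbone genes were then set beside the other genes of their clusters. Of 57 such genes listed for 11 products, 51 were tested, and 6 rose and 2 fell over 0 to 48 h, with a median log2 change of 0.03 against 0.11 for all genes. The shares of all genes tested were 10.6% rising and 12.4% falling. Over 6 to 48 h, 2 cluster genes rose and 9 fell, where the shares of all genes were 10.1% and 8.68%. In the aspernidine cluster 5 of the 5 other genes rose over 0 to 48 h, as did AN3230. Over 6 to 48 h AN3226 rose (edgeR adjusted p = 0.0183) and neither the 4 others nor AN3230 passed (edgeR adjusted p = 0.0724 for AN3230). AN3226 had 51.4, 84.1, 161, 288, 739, 978 and 1002 CPM (log2 change 5.16 ± 0.94, SE, edgeR adjusted p = 0.0062), and AN3225 had 0.63, 3.41, 17.9, 30.1, 126, 195 and 138 CPM (log2 change 8.09 ± 1.92, SE, edgeR adjusted p = 0.0182). AN3227, AN3228 and AN3229 had edgeR adjusted p = 0.023, 0.0288 and 0.0456, and their 24 h levels of 75.1, 111 and 214 CPM were above all earlier libraries. The calls of AN3225, AN3227, AN3228 and AN3229 were lost without 0 h (edgeR adjusted p, the highest with any 1 library left out, = 0.0618, 0.0754, 0.106 and 0.195). The call of AN3227 was lost without 30 h too, and those of AN3228 and AN3229 without 6, 12, 18 or 30 h, while that of AN3226 held without any 1 library.

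In the dba cluster 9 of 10 other genes fell over 6 to 48 h, as AN7903 did, and 2 fell over 0 to 48 h. AN7897 had 37.3, 702, 119, 116, 98.0, 40.2 and 11.4 CPM (log2 change over 48 h -5.26 ± 1.60, SE, edgeR adjusted p = 0.0441). AN7902, the gene next to AN7903, had 34.5, 418, 71.7, 79.1, 93.8, 24.5 and 6.997 CPM (log2 change -5.08 ± 1.58, SE, edgeR adjusted p = 0.0473). All 10 were highest at 6 h, the time of the highest level of AN7903, though AN7901 had 43.8 CPM at 6 h against 42.7 CPM at 30 h. Both whole-course calls were lost on leaving out any 1 library of 6 to 48 h, with edgeR adjusted p up to 0.221 for AN7897 and 0.250 for AN7902.

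In the other clusters few genes were called. In the aspyridone cluster AN8415 rose, with 17.2, 8.73, 13.5, 19.2, 17.0, 34.7 and 36.3 CPM (log2 change 1.68 ± 0.51, SE, edgeR adjusted p = 0.0434), while the synthase AN8412 fell. That call was lost on leaving out any 1 library of 6 to 48 h (edgeR adjusted p up to 0.137). AN8412 was highest at 0 h, and of its 7 cluster genes 2 were highest at 6 h, 1 at 12 h, 2 at 18 h, 1 at 30 h and 1 at 48 h. AN1034 was highest at 0 h, and of the 5 other asperfuranone genes 1 was highest at 12 h, 2 at 18 h and 2 at 30 h. The highest levels of these 5 were low, at 3.07 to 5.40 CPM. Times of highest level of cluster genes in this paragraph were in general not checked against counting error. The lists for penicillin, emericellamide, orsellinic acid, monodictyphenone, asperfuranone, asperthecin and cichorine held 31 genes, 29 of them tested, and 0 passed edgeR's slope over 0 to 48 h. At an unadjusted p under 0.05 there were 0 rising and 2 falling, DESeq2 called 1, falling, and limma-voom 0. Of the 11 monodictyphenone genes 4 were silent, where the share over all genes was 9.39%. The highest levels of these 4 were 0.385 to 0.954 CPM, some of them just under the limit of 1 CPM. The 2 other emericellamide genes, AN2548 and AN2549, were highest at 24 h like both synthases, at 122 and 270.1 CPM, against 0.31 and 2.82 CPM at 0 h. The 2 other penicillin genes, ipnA and aatA, were highest at 12 h and 6 h, at 131 and 51.9 CPM. No other orsellinic acid gene was highest at 12 h with AN7909. AN7911 and AN7912 were highest at 30 h, and AN7913 and AN7914 at 0 h. Of the other cichorine genes, AN6445, AN6446, AN6447 and AN6449 were highest at 12 h, like AN6444, and AN6443 at 0 h, like AN6448. Most of the 12 h highs were near ties. AN6445 had 9.40 CPM at 12 h against 9.33 CPM at 30 h. AN6446 and AN6449 had 8 and 33 counts at 12 h against 7 and 33 counts at 6 h. AN6447 had 8.25 CPM at 12 h against 5.11 CPM at 6 h, and AN6443 had 687 CPM at 0 h against 222 CPM at 6 h.

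**Figure D5:**
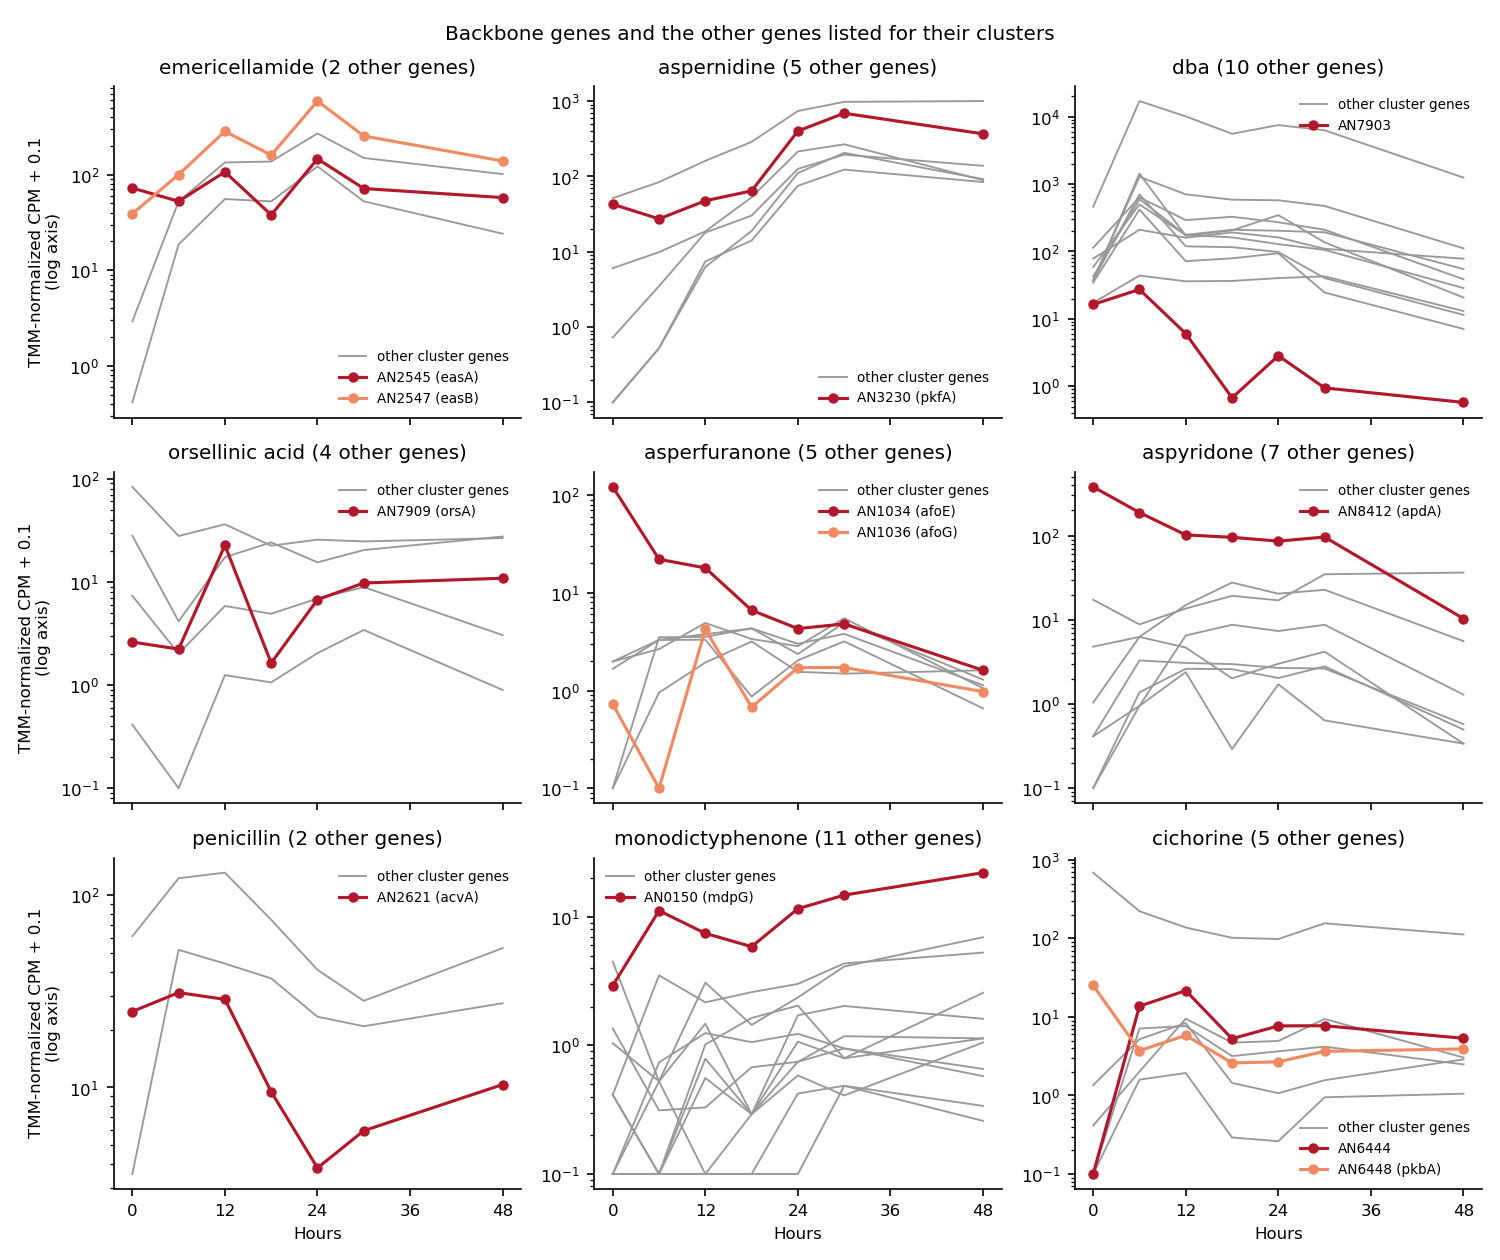
Level in CPM plus a small constant (log axis) against hours for backbone genes (thick lines with points) and the other genes listed for their clusters (thin grey lines), 1 panel for each of 9 clusters. Aspernidine genes climb with AN3230, the dba genes are highest at 6 h with AN7903, and no other asperfuranone or aspyridone gene is highest at 0 h with AN1034 and AN8412.

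The genes flanking each backbone gene, 3 on each side on its contig, were counted without choosing them by function. Around the 6 rising backbone genes, 11 of 35 tested neighbours rose (31.4%) and 4 fell (11.4%). Around the 6 falling backbone genes, 4 of 32 fell (12.5%) and 0 rose by edgeR's adjusted p. At an unadjusted p under 0.05, with DESeq2 and with limma-voom the rising count was also 0. Around the 23 uncalled ones, 7 of 111 rose (6.31%) and 8 fell (7.21%). Of the 11 rising neighbours, AN3230, AN7071 and AN8105 had 3 each and AN9005 and AN2924 had 1 each. Neighbours share a region and partly a cluster, so these counts carry no test, and the shares over all genes were 10.6% rising and 12.4% falling.

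Backbone genes not on the list, and genes that act on many clusters, were read for comparison. Of 10 other backbone genes, AN8209 (wA, of the spore pigment), AN8383 (ausA, of austinol) and AN10576 (ivoA, of the conidiophore pigment) rose, and AN2032 and AN2035 fell. For these 10 and for the 11 regulators below, the shares over all genes tested were 10.6% rising and 12.4% falling. The 48 h levels of the 5 called backbone genes were 189.6, 595, 269.5, 4.45 and 1.03 CPM, against 15.7, 0.94, 1.57, 513 and 447 CPM at 0 h. The call of AN8209 was lost without 48 h (edgeR adjusted p = 0.0666) and those of AN2032 and AN2035 without 0 h (edgeR adjusted p = 0.0791 and 0.122). The transferase npgA, which activates carrier proteins, had 6.58, 26.0, 23.6, 29.9, 23.2, 35.8 and 39.1 CPM (log2 change 1.53 ± 0.63, SE, edgeR adjusted p = 0.112). Of 11 regulators, mcrA, known as a repressor of such clusters, fell, with 354, 134, 166, 167, 115, 113 and 43.2 CPM (log2 change -2.55 ± 0.51, SE, edgeR adjusted p = 0.00855). That call was lost without 48 h (edgeR adjusted p = 0.0715) and with library totals alone (edgeR adjusted p = 0.171). The acetyltransferase gene gcnE rose (edgeR adjusted p = 0.0433), and the velvet gene velB fell (log2 change -1.16 ± 0.36, SE, edgeR adjusted p = 0.0463). With library totals alone the change of velB was 0.08, a scaling under which the median of all genes was 1.35 against 0.11 with TMM. The velB call was lost on leaving out any 1 library (edgeR adjusted p up to 0.105). That of gcnE was lost without 0, 12, 24, 30 or 48 h (edgeR adjusted p up to 0.135). The global regulator laeA had 22.9, 30.4, 41.0, 32.6, 28.1, 38.8 and 58.4 CPM and did not pass (log2 change 1.04 ± 0.38, SE, edgeR adjusted p = 0.0778), while it passed as rising with library totals alone (edgeR adjusted p = 0.0280).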

How the data were processed

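RNA of 7 libraries, 1 per time, was sequenced after an Illumina mRNA kit, per the labels' protocols. The deposited table gives for each gene model a whole-number count, a signal of reads per nucleotide and an RPKM value that the authors computed. The submitters' processing notes list CASAVA but give it no role. The aligner, genome build, annotation version and strand handling were not given in the sources used here. Coordinates are contig positions as deposited. RPKM was checked to equal the deposited reads per nucleotide scaled by the column total, so counted length was taken from them.

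Counts were scaled by TMM and fitted in edgeR 4.0.16 (R 4.3.3) by quasi-likelihood, with genes at 1 CPM or more in at least 1 library and 15 counts or more in all, as a slope on hours over 0 to 48 h (9703 genes) or 6 to 48 h (9691), or as a curve of hours and hours squared. Benjamini-Hochberg adjustment ran over all genes tested, at a threshold of 0.05. A log2 change is the slope times the hours spanned. Fold intervals are exact conditional binomial intervals at 95% and, like the floor of 3 counts, cover counting error only. Alternatives were library totals, upper quartile and RLE factors, no filter, a filter at 5 CPM, DESeq2 1.42.0, limma-voom 3.58.1, log2 of hours plus 6, and each library left out.

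The backbone genes, clusters and lists were chosen with earlier results of these data known. Values in every library are given for backbone genes past a fit or among the 10 highest per kilobase, and for listed genes past the 0 to 48 h slope plus npgA and laeA. The narrow peaks of AN7909 and AN8910, and the values of AN6444, AN2545 and AN2621, were singled out after their values were seen. The table names genes by AN identifier alone. Pathway names are general knowledge of A. nidulans; the RefSeq gene table matched 36 of the 37 identifiers and gave symbols for 5.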

Additional observations from a re-analysis of the deposited data

How the results depend on the processing

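No paired analysis was possible because each time has 1 library and all 7 carry the same replicate number, which leaves no second pair. Counts over 1.5 times from the reported one are given here with the range on leaving out 1 library in turn. Backbone genes rising over 0 to 48 h (6) numbered 3 to 6 and falling (6) 3 to 6 when 1 library was left out. Over 6 to 48 h the rising (5) numbered 8 with library totals alone and 3 to 6 with 1 library left out, and the falling (3) numbered 8 with DESeq2. Cluster genes rising (6) numbered 3 with limma-voom and 2 to 7 with 1 library left out. Cluster genes falling (2) numbered 0 with library totals alone, upper quartile factors or limma-voom, 1 with no filter, 6 with DESeq2 and 0 to 9 with 1 library left out. Of the other backbone genes and regulators, those rising (4) numbered 8 with totals alone, 6 with upper quartile factors and 2 to 5 with 1 library left out, and those falling (4) numbered 2 with totals alone or limma-voom and 2 to 3 with 1 library left out. Silent backbone genes (1) numbered 0 under a limit of 0.5 CPM, 3 under 1 CPM per kilobase and 1 to 2 with 1 library left out. Those highest at 0 h (11) numbered 7 with totals alone and 0 to 12 with 1 library left out, and those highest at 6 to 18 h (10) numbered 6 to 18. Steps of 4-fold lower in the later library (9) numbered 4 with totals alone. The cause was not tested, except that a fit without 0 h cannot place a gene there. The curve count (16) lay between 13 and 20 under every setting run. With 1 library per time, biological spread at a time is unknown. A gene with few counts, such as AN8513, was not detectable below 0.940 CPM at 0 h.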
